A study of Mus musculus with 2 samples.

Results

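The matrix proteases, their inhibitors and the collagen crosslinkers were compared between mouse fat labelled Oma1-deficient and mouse fat labelled control. They were the 53 genes whose symbol on the array begins with Mmp and a number, with Timp or with Adamts, or is Lox or Loxl and a digit, out of 19938 genes named by a single symbol. They comprised 22 matrix metalloproteinases, 18 ADAMTS proteases, 5 ADAMTS-like proteins, 4 tissue inhibitors of metalloproteinases and 4 lysyl oxidases. Each genotype was represented by 1 array of total RNA from white adipose tissue, taken at 24 weeks of age after 20 weeks on a high-fat diet, so diet and age were shared. One array was labelled Oma1_KO, of the Oma1-deficient genotype, and one Oma1_WT, of the control genotype. The labels give neither the fat depot, the sex and strain, the kind of Oma1 allele nor whether RNA was pooled.

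The OMA1 protein is a mitochondrial protease. The genes described here act outside the cell or at its surface. Metalloproteinases and ADAMTS enzymes are zinc proteases that cut collagens, elastin and proteoglycans, TIMPs block them by binding their active site, and lysyl oxidases join collagen and elastin chains into stable fibres. In obese fat this machinery is known for reshaping the matrix as adipocytes enlarge. ADAMTS-like proteins carry no protease domain and bind the matrix.

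With 1 array per genotype there was no replicate check and no test, and every difference below is a description of these 2 arrays. Intensities are the authors' values, read here as linear from their range, and each difference is the log2 of intensity plus 1 on the Oma1_KO array minus that on the Oma1_WT array. Both arrays had a median intensity of 83 over 35512 probe sets, and genes were counted where their mean reached that value. The spread between probe sets of the same gene, over 545 genes with exactly 2 of them, had an SD of 0.17 on the log2 scale. It measures disagreement of probe sets on the same RNA and not the spread between animals. Oma1 itself read 155 on the Oma1_KO array and 187 on the Oma1_WT array, a difference of -0.27. Its single probe set does not check the genotype, because the deleted part of the gene is not given. All 9 measured adipocyte markers were above the filter, with summed intensities of 55516 on the Oma1_KO array and 62627 on the Oma1_WT array.

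Of the 53 matrix genes 29 passed the filter, which is 54.7% against 57.1% of all genes. The size of the differences was modest. On the Oma1_KO array 1 of the 29, Mmp11, was at least 1.5-fold higher, where 1.23% of the 11393 genes above the filter were. Likewise 1 of the 29, Timp4, was at least 1.5-fold lower, where 1.74% of genes were. One gene in each direction among 29 is too few to set these shares apart from the background. None of the 29 reached 2-fold, which 0.272% of genes exceeded upward and 0.246% downward. Counting any size, 13 were higher and 16 lower. That is 44.8% and 55.2% of them, beside 36.6% and 62.3% of all genes above the filter. Their median difference was -0.05, against -0.06 over all those genes. Of the 29, 13 differed by less than the SD between probe sets, or 44.8% beside 59.0% of all genes above the filter, and 6 by at least 2 such SDs, or 20.7% beside 13.1%. Their differences had an SD of 0.33, against 0.25 over all genes above the filter, and that SD includes Mmp11 at 0.76 and Timp4 at -0.78. Among 29 genes these counts too are too few to set apart from the background.

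**Figure D1:**
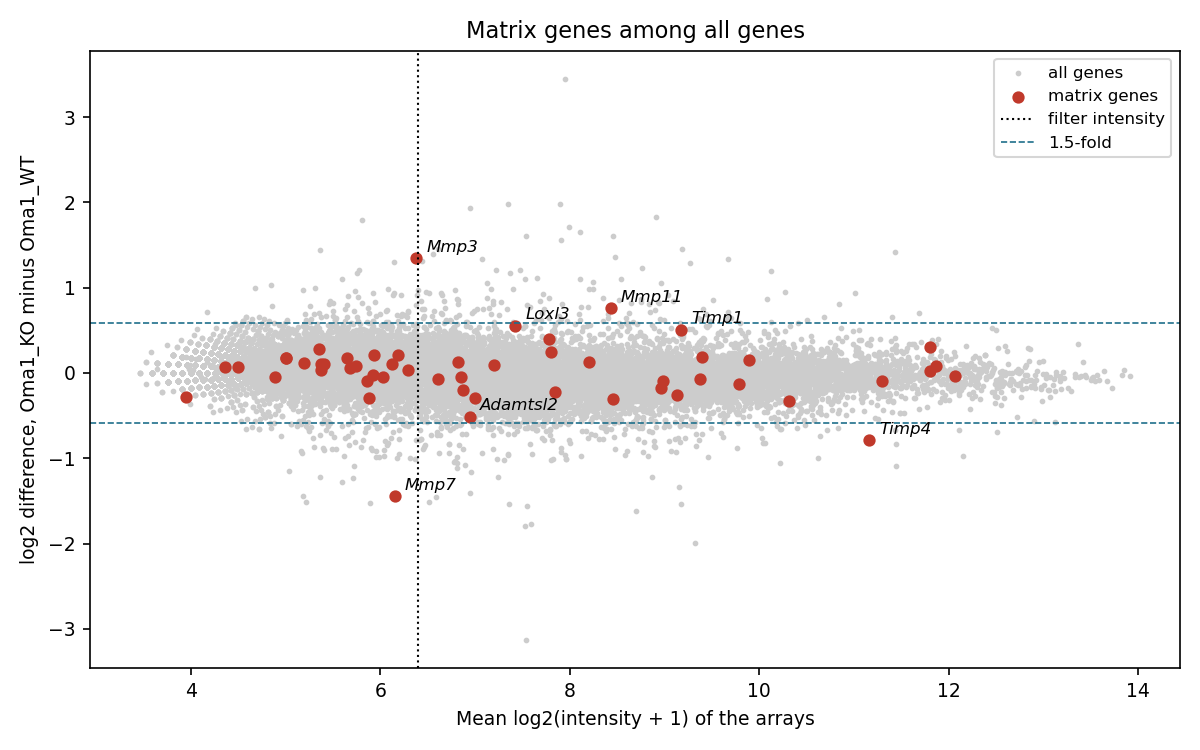
Each grey point is a gene and each red point a matrix gene, with the mean log2(intensity + 1) of the arrays on the x axis and the log2 difference, Oma1_KO minus Oma1_WT, on the y axis. Mmp11 at 0.76 and Timp4 at -0.78 lie past the dashed 1.5-fold lines to the right of the dotted filter line, and Mmp3 and Mmp7 lie past them to its left.

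The inhibitors differed in direction. Timp4, a TIMP abundant in heart and fat, read 1735 on the Oma1_KO array and 2989 on the Oma1_WT array. That is 1.72-fold lower in Oma1-deficient fat, a difference of -0.78, and 72 of the 11393 genes had a still lower one. Timp1, a secreted inhibitor known to be induced in inflamed and fibrotic tissue, read 686 on the Oma1_KO array and 482 on the Oma1_WT array. At 1.42-fold higher, or 0.51, it stayed under 1.5-fold, with 192 genes above it. Each difference exceeded 2 SDs between probe sets, and they had opposite signs.

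The remaining inhibitors were level. Timp2, which both inhibits MMP2 and helps to activate it at the cell surface, read 3834 on the Oma1_KO array and 3635 on the Oma1_WT array, a difference of 0.08. Timp3, the TIMP that stays bound to the matrix and also blocks ADAM17 and aggrecanases, read 2433 on the Oma1_KO array and 2603 on the Oma1_WT array, a difference of -0.10. Neither differed by as much as the SD between probe sets. The 4 inhibitors therefore had a median of -0.01, which describes neither Timp1 nor Timp4. In RefSeq's gene table each of Timp1, Timp3 and Timp4 overlaps a synapsin gene, Syn1, Syn3 and Syn2 in that order. Syn2 read 114 on the Oma1_KO array and 103 on the Oma1_WT array, a difference of 0.15 that runs opposite to that of Timp4. Syn1 and Syn3 were below the filter and ran in the direction of their TIMP, at 0.29 and -0.27.

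**Figure D2:**
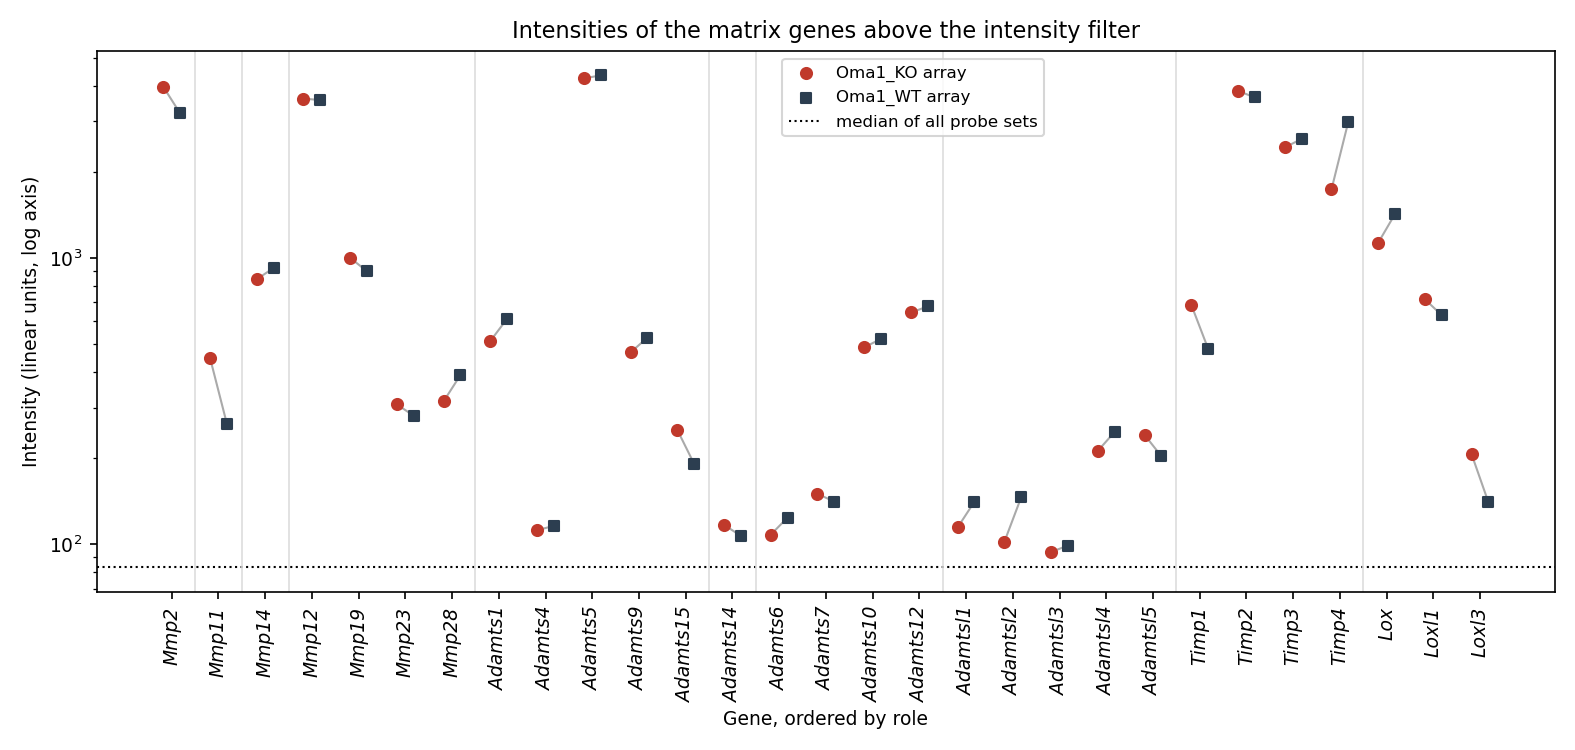
Intensity on a log axis for each of the 29 matrix genes above the filter, ordered by role, with the Oma1_KO array as circles and the Oma1_WT array as squares joined by a line. The steepest lines are those of Timp4, at 1735 on the Oma1_KO array and 2989 on the Oma1_WT array, and Mmp11, at 448 on the Oma1_KO array and 264 on the Oma1_WT array, and heights of different genes cannot be compared.

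Among the metalloproteinases above the filter 5 of 7 read higher on the Oma1_KO array, where 36.6% of all genes above the filter did. Of these 5, Mmp12, Mmp19 and Mmp23 differed by less than the SD between probe sets. A count among 7 genes is too small to set apart from that share. Mmp11, or stromelysin 3, a secreted enzyme that furin-type convertases activate inside the cell, read 448 on the Oma1_KO array and 264 on the Oma1_WT array. It was 1.69-fold higher, a difference of 0.76, and 75 of the 11393 genes had a higher one. Mmp2, the gelatinase that cuts denatured and basement membrane collagen and is made largely by stromal cells, read 3961 on the Oma1_KO array and 3201 on the Oma1_WT array, 1.24-fold higher at 0.31. Mmp14, the membrane enzyme that activates MMP2 and cuts fibrillar collagen, did not share this direction. It read 842 on the Oma1_KO array and 923 on the Oma1_WT array, a difference of -0.13 that lies within the SD between probe sets.

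Mmp12, the macrophage elastase, read 3604 on the Oma1_KO array and 3557 on the Oma1_WT array, a difference of 0.02. Of 12 macrophage markers 10 were higher and 2 lower, with summed intensities of 39346 on the Oma1_KO array and 33698 on the Oma1_WT array and a median difference of 0.26. Of 9 measured markers of lipid-associated macrophages 5 were higher and 4 lower, with summed intensities of 30866 on the Oma1_KO array and 30981 on the Oma1_WT array and a median of 0.02. In bulk tissue a change in the number of cells of a type and a change in RNA per cell cannot be told apart. Mmp19 read 1001 on the Oma1_KO array and 898 on the Oma1_WT array, a difference of 0.16. Mmp23 read 308 on the Oma1_KO array and 281 on the Oma1_WT array, at 0.13. Mmp28, or epilysin, was the lowest of the metalloproteinases above the filter, with 316 on the Oma1_KO array and 390 on the Oma1_WT array, at -0.30.

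The remaining 15 metalloproteinases were below the filter, among them the gelatinase Mmp9 and all 4 collagenases. Mmp9 read 55 on the Oma1_KO array and 59 on the Oma1_WT array. Mmp13, the main interstitial collagenase of the mouse, read 78 on the Oma1_KO array and 76 on the Oma1_WT array. Mmp8, the collagenase of neutrophils, read 22 on the Oma1_KO array and 21 on the Oma1_WT array. These signals cannot be told from background here. Of 9 neutrophil markers 1 passed the filter.

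In all, 24 matrix genes were below the filter. Apart from Mmp3 and Mmp7, the other 22 read 13 to 78 on the Oma1_KO array and 16 to 76 on the Oma1_WT array, 16 of them higher and 6 lower, with differences between -0.29 and 0.28.

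Mmp3 and Mmp7 were the exceptions among the dim genes. Mmp3, or stromelysin 1, a stromal enzyme that activates other metalloproteinases, read 131 on the Oma1_KO array and 51 on the Oma1_WT array. Its difference was 1.34 and its mean intensity of 81.8 lay just under the filter. Mmp7, or matrilysin, an enzyme made mainly by epithelia, read 42 on the Oma1_KO array and 116 on the Oma1_WT array, a difference of -1.44. For each gene only 1 array was above the median of all probe sets, the Oma1_KO array for Mmp3 and the Oma1_WT array for Mmp7. The size of both differences is therefore uncertain, although they were the largest of the 53 under this scaling and pass 2-fold. Over all 53 genes 30 read higher and 23 lower, beside 46.9% and 47.9% of all 19938 genes. Without the filter 2 of 53 genes were at least 1.5-fold higher and 2 lower, which is 3.77% each way beside 1.1% and 1.38% of all genes. At 2-fold it was 1 of 53 upward, Mmp3, and 1 downward, Mmp7, beside 0.206% and 0.201%. These counts are too small to set apart from the shares of all genes, and they include Mmp3 and Mmp7, each above the median on only 1 array. Markers of mesothelium, an epithelium on visceral fat, were lower as Mmp7 was. Of 10 mesothelial markers 9 were lower, and so were 8 of the 9 above the filter, where 62.3% of all genes were. Summed intensities of the 10 were 1892 on the Oma1_KO array and 2746 on the Oma1_WT array. The part of mesothelium in the Mmp7 value was not tested.

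**Figure D3:**
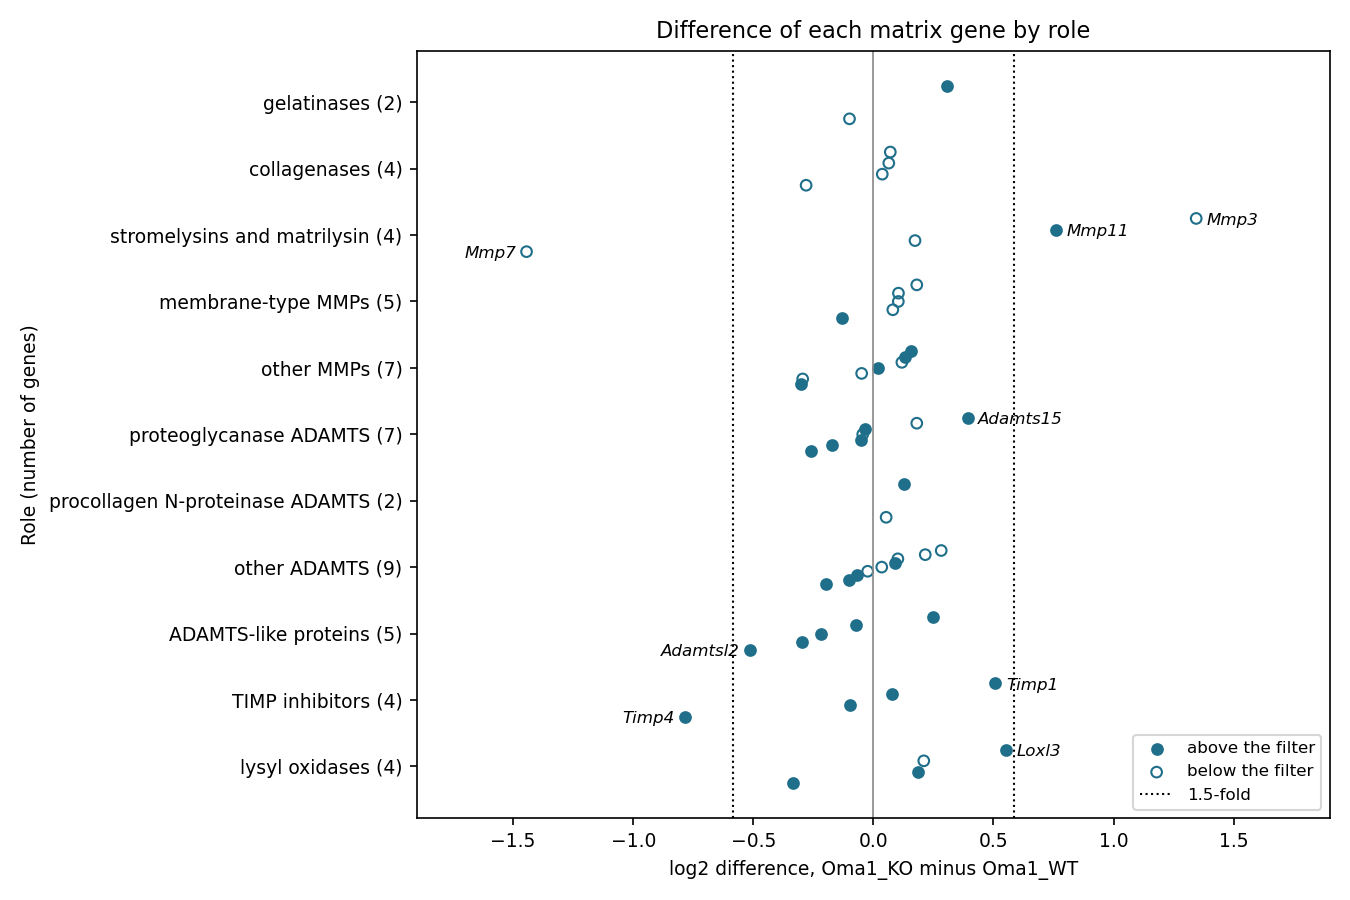
Log2 difference, Oma1_KO minus Oma1_WT, on the x axis for all 53 matrix genes by role, with filled points above the intensity filter and open points below it. The stromelysin and matrilysin row spans Mmp7 at -1.44 to Mmp3 at 1.34, and the TIMP row Timp4 at -0.78 to Timp1 at 0.51, while most other points lie between the dotted 1.5-fold lines.

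Mmp3, Mmp7 and Mmp12 are neighbours. In RefSeq's mouse gene table they belong to a run of 10 metalloproteinase genes on chromosome 9 with no other protein-coding gene between them, in the order Mmp13, Mmp12, Mmp1b, Mmp3, Mmp1a, Mmp10, Mmp8, Mmp27, Mmp20 and Mmp7. Apart from Mmp12, all were below the filter, that is 9 of 10, whereas 28 of the 43 matrix genes elsewhere were above it. Beside Mmp3 and Mmp7, the other 7 dim genes of the run read 13 to 78 on the Oma1_KO array and 16 to 76 on the Oma1_WT array. Next to the run, Tmem123 read 1858 on the Oma1_KO array and 2132 on the Oma1_WT array, and Dcun1d5 read 284 on the Oma1_KO array and 294 on the Oma1_WT array. Apart from Mmp3 and Mmp7 the genes of the run lay within 1.5-fold, but all of these except Mmp12 were dim. Their values therefore cannot show whether the run differed as a whole.

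Promoters are shown for Mmp3, Mmp7 and Mmp12 of the run, beside those matched among the 5 genes above the filter with the largest differences, which are Mmp11, Timp4, Adamtsl2 and Timp1, with none matched for Loxl3. They let the elements shared within the run be compared with genes elsewhere. AP-1 is the Fos and Jun factor, a classic activator of metalloproteinase genes. Its motif was searched as TGANTCA with any base allowed at N, so a match need not be a site that AP-1 binds. Each match marked below reads TGAGTCA. The capitals mark TGANTCA and the TATA motif TATAAA wherever they occur, searched on both strands. Each sequence is RefSeq's of build GRCm38.p6, from 250 bases before to 50 bases after a start of transcription. On that build Mmp3 lies at chr9:7445572-7445871 on the plus strand, Mmp7 at chr9:7691840-7692139 on the plus strand, this being the earlier of its starts, and Mmp12 at chr9:7347124-7347423 on the plus strand, this being the later of its starts. Mmp11 lies at chr10:75932453-75932752 on the minus strand, Timp4 at chr6:115252156-115252455 on the minus strand, Adamtsl2 at chr2:27079129-27079428 on the plus strand and Timp1 at chrX:20869916-20870215 on the plus strand.
Mmp3: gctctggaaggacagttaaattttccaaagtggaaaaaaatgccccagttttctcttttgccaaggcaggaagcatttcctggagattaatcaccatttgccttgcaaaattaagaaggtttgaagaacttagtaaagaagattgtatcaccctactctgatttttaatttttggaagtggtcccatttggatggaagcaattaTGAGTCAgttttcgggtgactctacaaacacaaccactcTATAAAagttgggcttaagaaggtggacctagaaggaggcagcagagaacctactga
Mmp7: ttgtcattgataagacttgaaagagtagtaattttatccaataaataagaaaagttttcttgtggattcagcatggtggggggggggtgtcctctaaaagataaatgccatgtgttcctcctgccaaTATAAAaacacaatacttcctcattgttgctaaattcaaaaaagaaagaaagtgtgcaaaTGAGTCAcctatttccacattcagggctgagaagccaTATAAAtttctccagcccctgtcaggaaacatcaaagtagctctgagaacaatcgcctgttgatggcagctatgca
Mmp12: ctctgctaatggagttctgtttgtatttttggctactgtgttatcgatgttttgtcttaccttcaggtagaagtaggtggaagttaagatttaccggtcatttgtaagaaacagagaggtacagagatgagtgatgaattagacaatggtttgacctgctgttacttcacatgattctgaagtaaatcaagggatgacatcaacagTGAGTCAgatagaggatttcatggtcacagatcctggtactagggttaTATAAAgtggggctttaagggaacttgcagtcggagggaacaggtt
Mmp11: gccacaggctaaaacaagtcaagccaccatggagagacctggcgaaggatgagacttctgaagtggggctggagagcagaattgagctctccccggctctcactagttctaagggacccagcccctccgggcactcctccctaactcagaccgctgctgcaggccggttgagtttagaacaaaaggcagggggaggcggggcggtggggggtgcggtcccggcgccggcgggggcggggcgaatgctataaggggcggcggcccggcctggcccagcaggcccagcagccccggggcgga
Timp4: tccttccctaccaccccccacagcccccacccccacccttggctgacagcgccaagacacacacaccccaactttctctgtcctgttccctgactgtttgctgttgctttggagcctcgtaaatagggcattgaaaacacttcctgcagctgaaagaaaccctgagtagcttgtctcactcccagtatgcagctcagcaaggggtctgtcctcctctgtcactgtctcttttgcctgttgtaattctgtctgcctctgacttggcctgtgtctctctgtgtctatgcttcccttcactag
Adamtsl2: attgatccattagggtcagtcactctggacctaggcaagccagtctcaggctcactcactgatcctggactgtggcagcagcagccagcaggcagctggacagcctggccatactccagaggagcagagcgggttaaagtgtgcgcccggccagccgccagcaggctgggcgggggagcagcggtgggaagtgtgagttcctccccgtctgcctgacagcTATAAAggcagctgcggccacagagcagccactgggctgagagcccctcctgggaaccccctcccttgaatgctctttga
Timp1: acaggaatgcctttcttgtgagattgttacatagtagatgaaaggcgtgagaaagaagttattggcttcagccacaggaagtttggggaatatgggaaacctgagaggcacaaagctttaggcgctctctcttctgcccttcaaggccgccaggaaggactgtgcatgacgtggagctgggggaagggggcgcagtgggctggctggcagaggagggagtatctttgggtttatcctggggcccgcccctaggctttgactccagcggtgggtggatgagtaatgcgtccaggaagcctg

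Mmp3, Mmp7 and Mmp12 each hold an AP-1 motif within 63 bases before the start shown, and a TATA motif after it. The first base of the AP-1 motif lies at -46, -63 and -44 in that order. The TATA motif begins at -7 in Mmp3 and at 5, past the start shown, in Mmp12. Mmp7 holds a further TATA motif before its AP-1 motif. The window of the other start of Mmp7 and that of the other start of Mmp12 hold neither motif. Adamtsl2 holds a TATA motif at -30 and no exact match to TGANTCA, and Mmp11, Timp4 and Timp1 match neither exactly in these windows. Near matches, such as tgagtaa in the Timp1 window, were not searched, so an AP-1 site in these windows is not excluded. Promoter windows were matched for 35 of the 53 genes. All 10 genes of the run had one, and 8 of them held the exact motif TGANTCA in at least 1 window, whereas 0 of the 25 matched genes elsewhere did. Among all 27025 genes with a window 8.97% held it. All 8 also held a TATA motif in the same window, as 1.84% of all genes did, counted at any position. In those not shown the TATA motif began at -58 in Mmp20, -49 in Mmp1b, -29 in Mmp10, -28 in Mmp1a and -16 in Mmp13. Genes of a tandem run share descent, so these are not independent cases. A match is a description and not a shown binding site. Of the genes shown that hold the AP-1 motif, Mmp3 was higher and Mmp7 lower, both below the filter, and Mmp12 was level. The run's other genes with the motif were also below the filter. The part of the motif in these differences was not tested.

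The ADAMTS proteases stayed close to the level of all genes. Of the 10 above the filter 3 read higher and 7 lower on the Oma1_KO array, none by 1.5-fold, with a median of -0.06, where 62.3% of all genes above the filter were lower and their median was also -0.06. Among the enzymes that cleave aggrecan and versican, Adamts15 was the exception, with 251 on the Oma1_KO array and 191 on the Oma1_WT array, 1.31-fold higher at 0.39. Adamts1, the first described of the family and an antagonist of blood vessel growth, read 513 on the Oma1_KO array and 614 on the Oma1_WT array, at -0.26. Adamts5, a major aggrecanase of cartilage, read 4236 on the Oma1_KO array and 4342 on the Oma1_WT array, at -0.04. Adamts4, the other main aggrecanase, read 112 on the Oma1_KO array and 116 on the Oma1_WT array, at -0.05. In RefSeq's gene order Adamts1 is next to Adamts5 and Adamts15 next to Adamts8, and in neither pair did the differences match closely. Adamts8 was dim, at 63 on the Oma1_KO array and 65 on the Oma1_WT array.

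Adamts9, a versican-cleaving protease, has 6 probe sets and gives the best view of consistency within a gene. Its mean read 467.9 on the Oma1_KO array and 526.8 on the Oma1_WT array, a difference of -0.17. Of its probe sets 5 were lower and 1 higher, with differences between -0.30 and 0.04. Adamts1 and Adamts9 were lower beside the endothelial markers, of which 12 of 12 were lower, where 62.3% of all genes above the filter were. The markers lay between -0.65 and -0.22, with a median of -0.36. Their summed intensities were 10371 on the Oma1_KO array and 13309 on the Oma1_WT array. The part of endothelium in the values of Adamts1 and Adamts9 was not tested.

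Adamts3, a procollagen N-proteinase, has 16 probe sets, of which 8 were higher and 8 lower, between -0.29 and 0.49, and 2 of which were above the filter intensity. Its mean read 51.04 on the Oma1_KO array and 49.16 on the Oma1_WT array, below the filter. The differences of its probe sets had an SD of 0.20, against 0.17 over the genes with exactly 2 probe sets. Adamts17 had 5 of 5 probe sets higher, between 0.04 and 0.37, but 3 of them were dim and its mean stayed below the filter, at 77.5 on the Oma1_KO array and 66.6 on the Oma1_WT array.

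**Figure D4:**
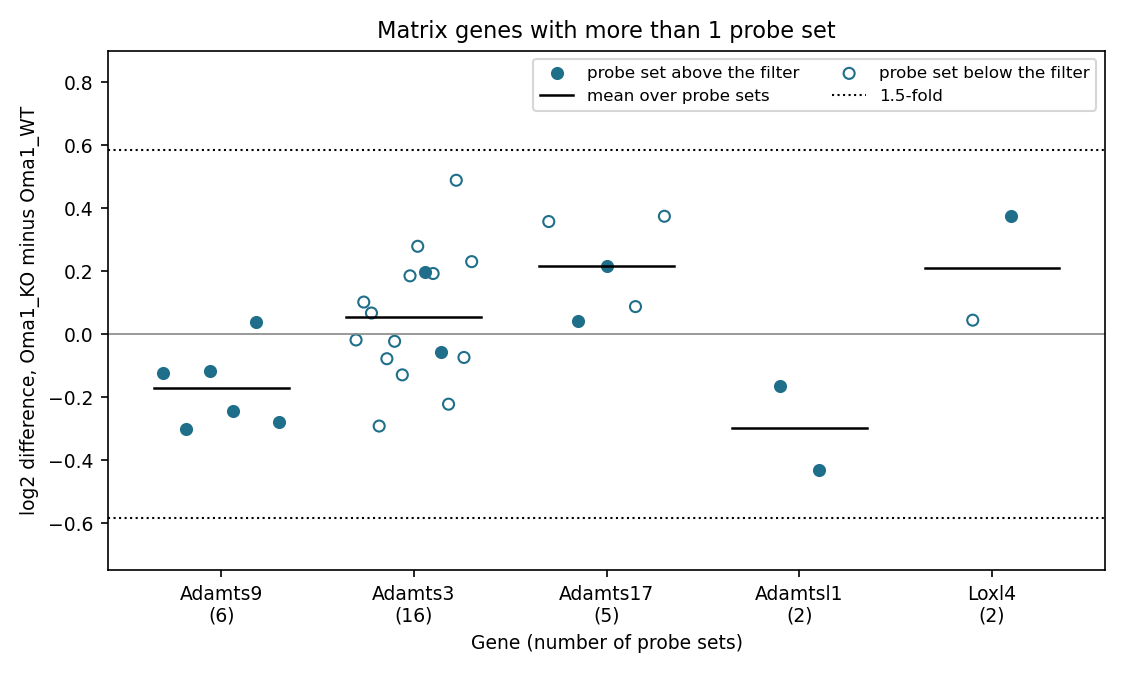
Log2 difference, Oma1_KO minus Oma1_WT, on the y axis for each probe set of the 5 matrix genes that have more than 1, with filled points above the filter intensity, open points below it and bars at the mean. Of the 6 Adamts9 probe sets 5 lie below 0, while the 16 of Adamts3 scatter between -0.29 and 0.49.

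The other ADAMTS genes above the filter stayed close to 0. Adamts14, which also removes the amino-terminal propeptide of procollagen, read 117 on the Oma1_KO array and 107 on the Oma1_WT array, at 0.13. Adamts7 read 150 on the Oma1_KO array and 141 on the Oma1_WT array, at 0.09, and Adamts12, which like it cleaves cartilage oligomeric matrix protein, read 645 on the Oma1_KO array and 677 on the Oma1_WT array, at -0.07. Adamts10, which binds fibrillin microfibrils, read 487 on the Oma1_KO array and 522 on the Oma1_WT array, at -0.10. Adamts6 was the lowest of this group, with 108 on the Oma1_KO array and 124 on the Oma1_WT array, at -0.20. Adamts13, the protease of von Willebrand factor made in the liver, was dim at 41 on the Oma1_KO array and 40 on the Oma1_WT array. Such a signal cannot be told from background. Of 8 measured liver markers, all above the filter, 6 were higher, with a median of 0.87. Of these, 5 were at least 1.5-fold higher, where 1.23% of genes above the filter were. Summed intensities were 27505 on the Oma1_KO array and 24563 on the Oma1_WT array. The 2 brightest markers, Hp at -0.05 and Trf at -0.18, were the lower ones and weigh most in these sums.

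ADAMTS-like proteins were lower in 4 of 5 cases, with a median of -0.22, where 62.3% of all genes above the filter were lower. With 5 genes the count cannot be set apart from that share. Adamtsl2, which binds fibrillin and latent TGF-beta binding protein, read 102 on the Oma1_KO array and 146 on the Oma1_WT array, 1.43-fold lower at -0.51. Adamtsl1 was lower in both of its probe sets, at -0.43 and -0.16. Its mean read 114.5 on the Oma1_KO array and 141.0 on the Oma1_WT array. Adamtsl4, a partner of fibrillin in the fibres that hold the lens, read 212 on the Oma1_KO array and 247 on the Oma1_WT array, at -0.22. Adamtsl3 was nearly level, at 94 on the Oma1_KO array and 99 on the Oma1_WT array. Adamtsl5 went the other way, with 241 on the Oma1_KO array and 203 on the Oma1_WT array, at 0.25.

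The lysyl oxidases differed in direction. Lox, the founding enzyme of collagen and elastin crosslinking, read 1130 on the Oma1_KO array and 1424 on the Oma1_WT array, 1.26-fold lower at -0.33. Loxl3 read 206 on the Oma1_KO array and 140 on the Oma1_WT array, 1.47-fold higher at 0.55. It was the gene nearest to 1.5-fold from below, which it passed after quantile normalisation, at 0.60, and after a loess correction, at 0.59, and 155 of the 11393 genes had a higher difference. Loxl1, which is needed for elastic fibre upkeep, read 717 on the Oma1_KO array and 631 on the Oma1_WT array, at 0.18. Loxl4 was below the filter, at 64.7 on the Oma1_KO array and 55.9 on the Oma1_WT array. In RefSeq's table Loxl3 overlaps Htra2, which read 744 on the Oma1_KO array and 675 on the Oma1_WT array, at 0.14. Another probe set carried a lysyl oxidase symbol together with a second gene's and was left out.

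Genes that act with these enzymes were described from lists by function, beside 36.6% higher and 62.3% lower among all genes above the filter. Of the plasmin system, which activates several metalloproteinases, 5 genes passed the filter, 4 were higher and none reached 1.5-fold, with a median of 0.25. Serpinf2, the plasmin inhibitor, read 150 on the Oma1_KO array and 106 on the Oma1_WT array, at 0.50. Plg, the plasmin precursor, read 189 on the Oma1_KO array and 136 on the Oma1_WT array, at 0.47. Both are made mainly by liver, whose markers are given above, and the part of liver RNA was not tested. Plau, or urokinase, read 1847 on the Oma1_KO array and 1550 on the Oma1_WT array, at 0.25.

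Among 12 activators and other inhibitors above the filter 8 were higher and 4 lower, with a median of 0.08. Pcsk6, a furin-type convertase, read 728 on the Oma1_KO array and 405 on the Oma1_WT array, 1.80-fold higher at 0.84. Spock2, a testican proteoglycan, read 173 on the Oma1_KO array and 329 on the Oma1_WT array, at -0.92. Pcolce2, which speeds the removal of the procollagen carboxy-terminal propeptide, read 3194 on the Oma1_KO array and 2410 on the Oma1_WT array, at 0.41. Furin itself, at 892 on the Oma1_KO array and 848 on the Oma1_WT array, and the membrane inhibitor Reck, at 282 on the Oma1_KO array and 280 on the Oma1_WT array, were level.

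The ADAM sheddases, several of which TIMPs block, were all above the filter, 3 of 8 higher and 5 lower with a median of -0.11. Adam10, a sheddase of Notch, read 701 on the Oma1_KO array and 829 on the Oma1_WT array, at -0.24. Adam8 read 1125 on the Oma1_KO array and 990 on the Oma1_WT array, at 0.18. Adam19 read 335 on the Oma1_KO array and 376 on the Oma1_WT array, at -0.17.

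Substrates stayed near the level of all genes. Of 17 fibrillar collagen and elastic fibre genes above the filter 7 were higher and 9 lower, 1 had the same value on both arrays, and the median was -0.04. Mfap2, a microfibril protein, was the only one past 1.5-fold, with 340 on the Oma1_KO array and 531 on the Oma1_WT array, at -0.64. Ltbp4, which holds latent TGF-beta in the matrix, read 1100 on the Oma1_KO array and 1402 on the Oma1_WT array, at -0.35, and Col3a1 lay at -0.38. Of 6 proteoglycan genes above the filter 2 were higher and 4 lower, with a median of -0.06. Ncan, or neurocan, read 619 on the Oma1_KO array and 854 on the Oma1_WT array, at -0.46. Lum, or lumican, a collagen-binding proteoglycan, read 1947 on the Oma1_KO array and 1512 on the Oma1_WT array, at 0.36. Hspg2, or perlecan, lay at -0.24. Versican, the substrate of several ADAMTS enzymes, read 451 on the Oma1_KO array and 480 on the Oma1_WT array under the symbol Vcan, at -0.09.

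**Figure D5:**
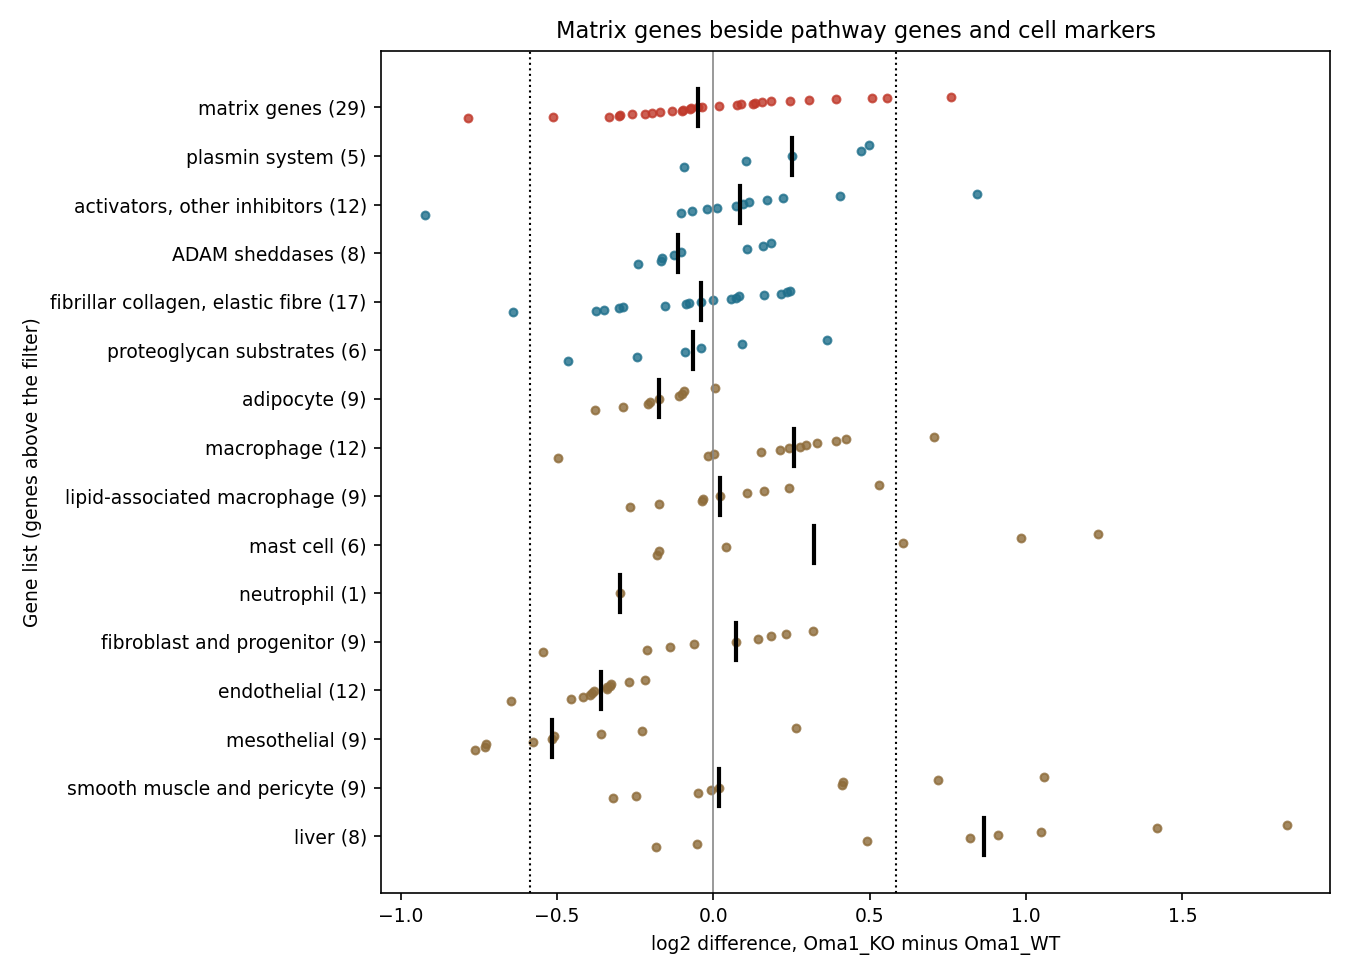
Log2 difference, Oma1_KO minus Oma1_WT, on the x axis for every gene above the filter in each list, with black bars at the median and dotted lines at 1.5-fold. The 29 matrix genes have a median of -0.05, between those of macrophage markers at 0.26 and endothelial markers at -0.36.

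Markers of fibroblasts and progenitors, stromal cells that make many of these enzymes, did not move one way. Of 9 fibroblast and progenitor markers 5 were higher and 4 lower, with a median of 0.07 and summed intensities of 21406 on the Oma1_KO array and 19635 on the Oma1_WT array. Of 9 adipocyte markers 8 were lower, with a median of -0.17 and a lowest difference of -0.38. Over all genes above the filter 62.3% were lower and the median was -0.06. Of 10 mast cell markers 6 passed the filter, 4 higher and 2 lower, with a median of 0.32. At least 1.5-fold higher were 3 of the 6, where 1.23% of genes above the filter were. Over all 10, dim ones included, 7 were higher and 3 lower. Their summed intensities were 2017 on the Oma1_KO array and 1347 on the Oma1_WT array. Of 10 smooth muscle and pericyte markers 9 passed the filter, 5 higher and 4 lower, 2 of them at least 1.5-fold higher, with a median of 0.02. Over all 10, 6 were higher and 4 lower, with summed intensities of 6832 on the Oma1_KO array and 6488 on the Oma1_WT array. Several of these markers differed by less than the SD between probe sets, among them Lipe of adipocytes at 0.01 and Acta2 of smooth muscle at -0.01. The part of these cell types in the differences of the matrix genes was not tested.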

How the data were processed

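Per the labels' protocols, total RNA was extracted with Trizol, labelled with biotin and hybridised to Affymetrix whole-transcript mouse arrays. The authors deposited whole numbers, 1 for each probe set on an array, taken here as linear intensities from their range because the scale is not stated. In the sources used here, software, background correction and scaling are not given. Intensities ran from 8 to 21365 on the Oma1_KO array and from 8 to 21216 on the Oma1_WT array. Upper quartiles were 318 on the Oma1_KO array and 335 on the Oma1_WT array. No detection call was used, and precision is limited by having 1 array per genotype.

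GEO's platform annotation gave 21789 probe sets a single symbol, 1621 several and 12102 none. Only the first entered gene values. All 53 matrix genes matched RefSeq's table of GRCm38.p6 by identifier and symbol. That table gave names, overlaps and gene order. Intensities became log2(intensity + 1), which understates differences of dim genes, and probe sets of a gene were averaged. Genes counted had a mean at or above log2 of the median intensity plus 1. Sizes of 1.5-fold and 2-fold replaced tests. The rule for named genes took every matrix gene above the filter, dim ones past 1.5-fold, all TIMPs and lysyl oxidases, up to 3 genes per other list with the largest difference, and Oma1. Other dim genes, neighbours, overlapping genes, Furin, Reck and Vcan were named after their values were seen. The genes and lists were chosen with earlier results of these data known. Counting was tested on simulated data. Alternatives were quantile normalisation, loess, the brightest probe set, a pseudocount of 16 and 3 other filters. Python 3.11.15, numpy 2.4.6, pandas 2.3.3, statsmodels 0.14.6 and matplotlib 3.10.9 were used.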

Additional observations from a re-analysis of the deposited data

How the results depend on the processing

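No paired analysis was possible because each genotype had 1 array, and none could be left out. Under 4 alternatives none of the 32 matrix genes named by the rule changed sign, and the largest move was 0.26. Adamts3 was not among those 32. Its brightest probe set read 124 on the Oma1_KO array and 129 on the Oma1_WT array, at -0.06, against 0.05 for its mean. With the brightest probe set 32 matrix genes passed the filter, against 29. The 1 gene above 1.5-fold became 2 with quantile normalisation and loess, as Loxl3 reached 0.60 and 0.59, and also with a pseudocount of 16 and with no filter, as Mmp3 was then counted. With the last 2 settings 1 gene was at least 2-fold higher, against 0. The 1 gene below 1.5-fold became 2, and the 0 below 2-fold became 1, with no filter and with the filter on the Oma1_WT array alone, which admit Mmp7. The median of stromelysins and matrilysin, Mmp11 alone as reported, was 0.93 with a pseudocount of 16, 0.47 with no filter and -0.34 with the Oma1_WT filter, where Mmp7 joins. With no filter the median was 0.10 for gelatinases and for membrane-type enzymes, as dim genes join. It was -0.075 for lysyl oxidases with a filter at the upper quartile, where Loxl3 drops out. Mmp3 and Mmp7 became 1.13 and -1.19 with a pseudocount of 16. Counts over all genes at 1.5-fold, 140 higher and 198 lower, were 169 and 147 after quantile normalisation, 165 and 154 after loess, 52 and 81 at the upper quartile, and 219 and 275 with no filter. The median of all genes above the filter was -0.01 after quantile normalisation or loess. Whole-number rounding and the lack of a detection call limit what dim genes can show.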
